A study of Mus musculus with 2 samples.

Results

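The heat shock, DnaJ and chaperonin genes are the part of the proteostasis network that carries the HSP, J-domain and CCT names. The set was taken by symbol: every protein-coding gene whose mouse symbol starts with Hspa, Hspb, Hspd, Hspe, Hsph, Dnaja, Dnajb, Dnajc or Cct and then a digit, or with Hsp90. This gave 79 members of the 21474 protein-coding genes, in tables of 69691 rows. Hspa14 also meets the rule, but its M21 identifier had no row, so it is not among the 79. Expression was read by total RNA-seq in midbrain tissue of newborn mice (postnatal day 0) of strain B6NCrl, all in 1 group with no treatment named. The 2 animals, pup 1 (biological replicate 1) and pup 3 (biological replicate 2), each gave a single midbrain and a single library, and no animal was heated, so "heat-induced" below names what a gene is known for and not a treatment. Markers of brain cells were read in the tissue at or above 1 TPM in both pups, 7 of 7 for neurons, 5 of 5 for astrocytes and radial glia, 4 of 5 for the oligodendrocyte lineage (all but Mog) and 4 of 4 for microglia. Erythroid markers were present as well (4 of 4, with Hba-a2 at 949 and 1048 TPM). The libraries held 36934868 (pup 1) and 40769103 (pup 3) expected counts. With 2 animals in 1 group no test of a condition exists, and an exact sign-flip test cannot go below p = 0.5. Values are therefore given for each pup, or as mean ± SD (n = 2), in TPM, the authors' level per transcript length scaled to the same sum in each library.

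HSP70 proteins bind exposed hydrophobic stretches of unfolded proteins in a cycle driven by ATP. J-domain proteins of the DnaJ A, B and C classes bring clients and start ATP hydrolysis, and HSP110 proteins exchange the nucleotide. HSP90 receives clients that are already partly folded, the chaperonin CCT encloses actin and tubulin in a double ring, and HSP60 with its lid HSP10 does the same for other proteins in the mitochondrial matrix. Some of these genes are expressed in every cell, and others are known to be switched on by heat shock factor through heat shock elements in their promoters.

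Members were more often read than protein-coding genes in general. Of the 79 members, 68 (86.1%) were at or above 1 TPM in both pups, where the share over all protein-coding genes was 62.1%. A level of at least 100 TPM in both pups was reached by 22 members (27.8%), beside 7.85% of all protein-coding genes. The median member had 34.6 TPM in pup 1 and 33.5 in pup 3, and the median protein-coding gene at 4.52 and 4.70. Together the members held 1.14% of protein-coding TPM in pup 1 and 1.18% in pup 3. This sum was uneven: Hspa8, Hsp90aa1 and Hsp90ab1 held 44.4% ± 0.101 of it and the 10 highest members 67.7% ± 0.214. For 24 of the 79 members the counts were not whole numbers (tolerance 0.005), as happens where reads are shared between genes. Among all 21474 protein-coding genes this held for 4391. Of those 21474, 3642 had no count in either pup, beside 2 of the members.

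**Figure D1:**
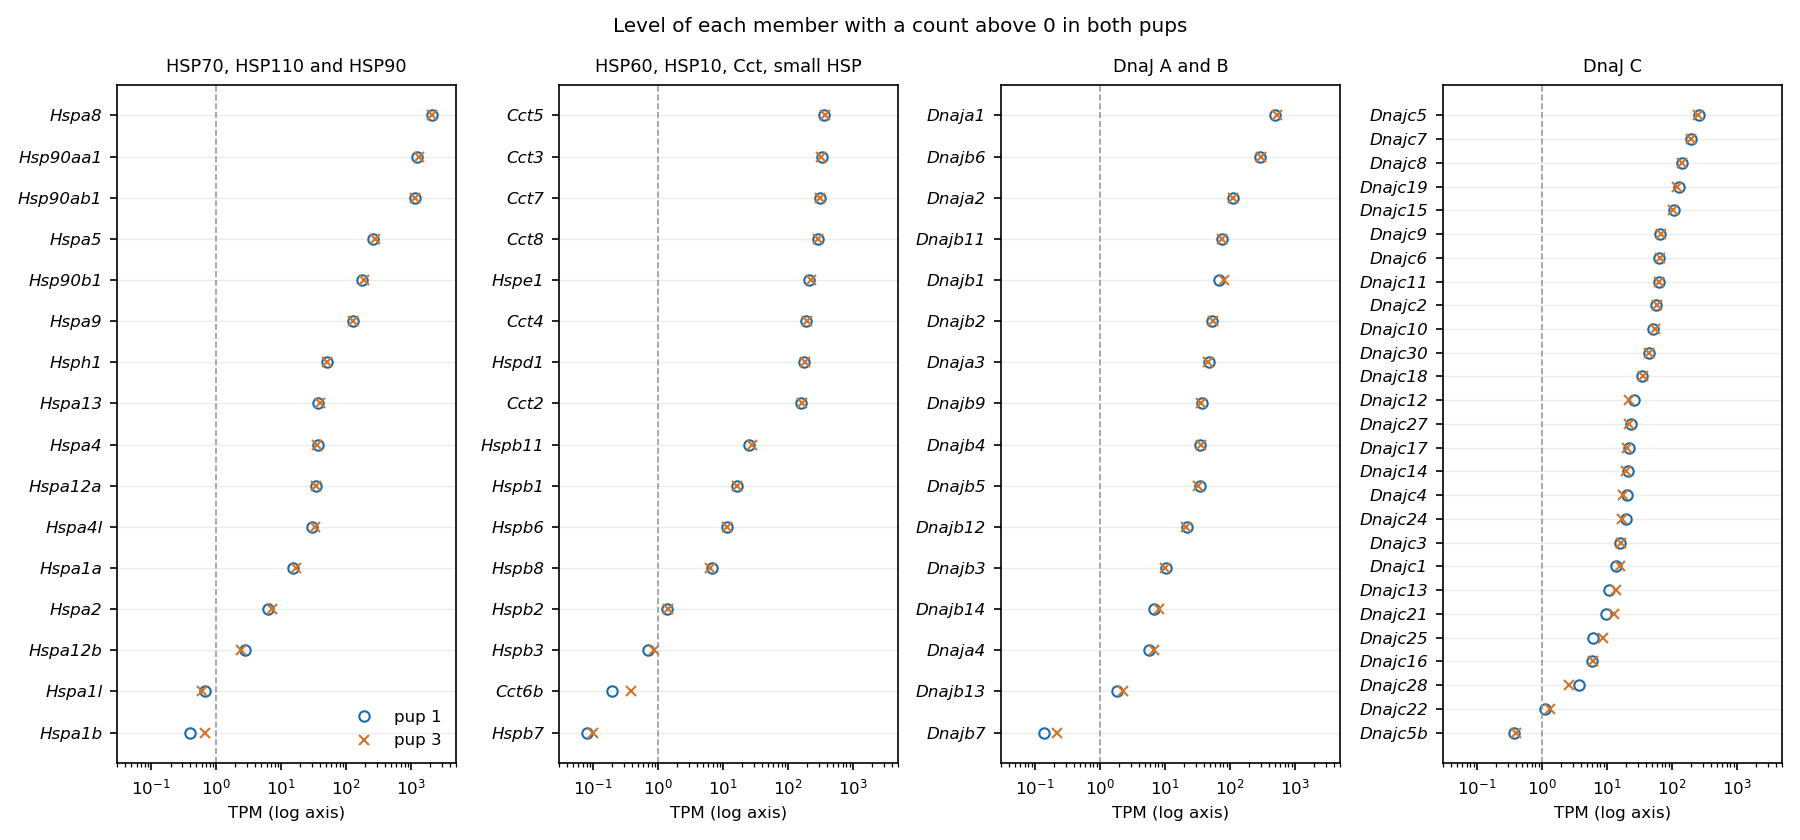
Level in TPM (log axis) of each member with a count above 0 in both pups, by family, with pup 1 as circles, pup 3 as crosses and a dashed line at 1 TPM. The pups' symbols lie on each other for most members, Hspa8 is highest, and the members left of the line include Hspa1b, Hspa1l, Cct6b, Hspb3, Hspb7, Dnajb7 and Dnajc5b.

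The HSP70 and HSP90 families each held about 0.3% of protein-coding TPM, with 0.308% ± 0.00450 for the 13 HSP70 and HSP110 genes and 0.297% ± 0.0107 for the 3 HSP90 genes. Over complete coding transcripts only, the shares were 0.255% and 0.169% and the families were then not close. The 45 DnaJ genes together held 0.313% ± 0.00639, made up of 0.162% ± 0.000429 in class C (28 genes), 0.0775% ± 0.00430 in class A (4 genes) and 0.0739% ± 0.00252 in class B (13 genes). Class A held 0.0481% over complete coding transcripts only. The 8 chaperonin members held 0.188% ± 0.000170, and HSP60 with HSP10 held 0.0454% ± 0.00133. Small heat shock proteins held least, at 0.00723% ± 0.000201 over 8 genes, or 0.00355% of expected counts.

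**Figure D2:**
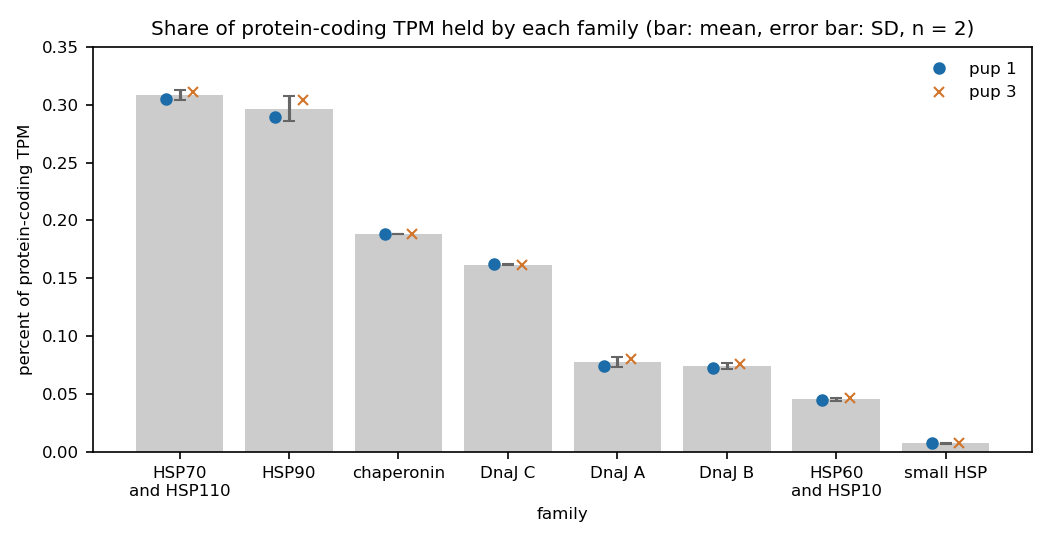
Percent of protein-coding TPM held by each family (bars, mean; error bars, SD over 2 pups; circles, pup 1; crosses, pup 3). HSP70 with HSP110 (0.308%) and HSP90 (0.297%) stand highest and the small heat shock proteins (0.00723%) lowest.

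Hspa8, the constitutive cytosolic HSP70 that also strips clathrin from vesicles, was the highest member (ENSMUSG00000015656.12, chromosome 9, 40800984 to 40810087 on mm10). It had 2095 TPM in pup 1 and 2112 in pup 3, rank 29 among all protein-coding genes. Next among the HSP70 genes was Hspa5, the HSP70 of the endoplasmic reticulum, at 259 and 280 TPM. Hspa9, the mitochondrial HSP70, was at 127 and 129 TPM. The 3 compartments were thus ordered cytosol, endoplasmic reticulum, mitochondrion in both pups. The log2 ratio of Hspa8 over Hspa5 was 2.97 ± 0.074 and that of Hspa5 over Hspa9 1.07 ± 0.069. The latter was not over 1 in expected counts (0.60 ± 0.10) or over complete coding transcripts (0.77 ± 0.11), so Hspa5 and Hspa9 were then not apart.

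The remaining HSP70 genes were far lower. Hspa13, a microsomal form, was at 36.6 and 40.0 TPM, and Hspa12a, a distant relative found in brain, at 34.6 and 34.6. Hspa12b, its relative known from endothelium, was at 2.77 and 2.45 TPM, a log2 ratio of Hspa12a over Hspa12b of 3.68 ± 0.12. The endothelial marker Cldn5 had 117 TPM in pup 1 and 98.3 in pup 3, and all 4 endothelial markers were at 1 TPM or more. In whole tissue, fewer cells of a type and less RNA per cell cannot be told apart. Hspa2, best known from the testis, was at 6.22 and 7.21 TPM, and the testis form Hspa1l at 0.69 and 0.62.

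Hspa1a and Hspa1b, the classical heat-induced HSP70 genes, lie side by side on chromosome 17 (34969190 to 34972156 and 34956436 to 34959238). Hspa1a had 15.6 TPM in pup 1 and 16.9 in pup 3, and Hspa1b at 0.40 and 0.67. Hspa8 was above Hspa1a by 7.01 ± 0.073 on the log2 scale, 129-fold, and above Hspa1b by 11.73 ± 0.43. The split between Hspa1a and Hspa1b is uncertain. Their coding sequences were identical at 1918 of 1929 aligned positions (99.4%), with a run of 638 bases without a difference, and neither gene had whole counts. Hspa8 and Hspa1a, by contrast, shared 73.9% of aligned coding bases with no identical run over 22 bases.

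The HSP110 genes exchange nucleotide on HSP70. Hsph1, the heat-induced form, had 50.6 TPM in pup 1 and 50.8 in pup 3. Hspa4, the constitutive form, was at 36.6 and 36.1 TPM. Hspa4l, a relative high in testis, was at 30.2 and 33.5. The heat-induced gene was thus the highest of the 3 in both pups. The log2 ratio of Hspa4 over Hsph1 was -0.48 ± 0.017, short of the size of 1 asked of a pair called apart. Over complete coding transcripts only, it was -1.42 ± 0.095, and the pair was apart by sign, size and SD. Credibility intervals were not compared there. Hspa4 and Hspa4l differed by 0.19 ± 0.12, and their deposited credibility intervals overlapped in at least 1 pup.

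HSP90 was led by its heat-induced cytosolic form when all transcripts were summed. Hsp90aa1 (ENSMUSG00000021270.9, chromosome 12, 110690605 to 110702728) had 1235 TPM in pup 1 and 1349 in pup 3. Hsp90ab1, the constitutive cytosolic form, was at 1141 and 1142 TPM. The log2 ratio of Hsp90ab1 over Hsp90aa1 was -0.18 ± 0.089, negative in both pups but small. Its sign depended on what was summed: it was 0.32 ± 0.097 with expected counts not divided by length, and 1.16 ± 0.11 when only transcripts with a complete coding sequence were summed. Hsp90b1, the form of the endoplasmic reticulum, was at 176 and 188 TPM, below Hsp90ab1 by 2.65 ± 0.066 on the log2 scale.

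In the mitochondrion, Hspd1 (HSP60) had 179 TPM in pup 1 and 183 in pup 3, and Hspe1 (HSP10) at 214 and 225. The pair is transcribed in opposite directions from neighbouring start sites on chromosome 1, at 55088148 for Hspe1 and at 55087932 or 55088243 for Hspd1. Per length the log2 ratio of Hspe1 over Hspd1 was 0.28 ± 0.028. In expected counts, which grow with transcript length, it was -1.40 ± 0.045. The annotated bodies of the 2 genes overlap on opposite strands, and no source used here says whether counts respect strand, so reads in the overlap cannot be told apart.

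Promoters of members were read from RefSeq (GRCm38.p6, 250 bases before to 50 after each start), which matched 64 of the 79 members. The heat shock element was searched on both strands as GAA in 3 alternating units, GAANNTTCNNGAA, and found in 198 of 32851 promoters (0.603%) and in 179 of 27025 genes (0.662%). Of the 64 matched members, 4 (6.25%) had a match: Hspd1, Hspe1, Dnajb6 and Hsph1. A match is a description of the letters and not a site of binding, and a promoter without one says only that these letters were not in that window. Hspe1 and Hspd1 shared a single stretch between their start sites, chr1:55088053-55088082, which held 2 overlapping matches. It is shown because both genes read it, each on its own strand, with the matched bases in capitals:
Hspe1 strand: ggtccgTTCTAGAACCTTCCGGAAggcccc
Hspd1 strand: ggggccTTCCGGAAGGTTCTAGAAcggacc
The match begins 89 bases before the Hspe1 start and 144 before the inner Hspd1 start, inside the transcript that begins at the outer Hspd1 start. Dnajb6 (chr5:29735844-29735872, plus strand) and Hsph1 (chr5:149636280-149636308, minus strand) had 1 match each, again in capitals:
Dnajb6: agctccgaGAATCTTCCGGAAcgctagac
Hsph1: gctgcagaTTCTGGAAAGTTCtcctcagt
The Hsph1 match lies after its start site, and GENCODE M21 places the Dnajb6 stretch within a first exon that begins upstream of the RefSeq starts. These 4 genes did not share a level, since Dnajb6 was at 300 ± 9.09 TPM, Hspe1 at 219 ± 7.93, Hspd1 at 181 ± 3.00 and Hsph1 at 50.7 ± 0.106. Hspa1a and Hspa1b had no match to these letters, and their promoters were identical at 296 of 300 bases. Their levels were 15.6 and 0.40 TPM in pup 1, a split that is uncertain as given above.

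As lists, chosen with earlier results of these data known, the heat-induced members lay below the constitutive cytosolic ones by median and by share. Hspd1 and Hspe1, with heat shock element matches above, were listed as mitochondrial. Dnajb6, also with a match, was listed as constitutive. The 7 heat-induced members had a median of 50.7 ± 0.106 TPM, 6 of them at or above 1 TPM in both pups, and they held 0.212% of protein-coding TPM in pup 1 and 0.234% in pup 3. The 9 constitutive cytosolic members read had a median of 200 ± 3.18 TPM and held 0.476% and 0.480%. Hspa14, also on that list, had no row under its M21 identifier and was not analysed here. Most of the heat-induced sum was Hsp90aa1 and Dnaja1, both of which are also known to be expressed without stress. Among 6 pairs of a constitutive and a heat-induced relative, 4 were apart, that is of the same sign in both pups, over 1 and over 3 SD in size, and with separate credibility intervals. Of those 4, the constitutive gene was higher in 3: Hspa8 over each of Hspa1a and Hspa1b, and Dnajb6 over Dnajb1. The heat-induced gene was higher in 1, Dnaja1 over Dnaja2. Over all 6 pairs the constitutive gene was higher in 3, and Hsp90aa1, Hsph1 and Dnaja1 were each above their constitutive relative in summed TPM. Hsp90aa1 was below Hsp90ab1 in expected counts and over complete coding transcripts. Over complete coding transcripts Dnaja1 and Dnaja2 were no longer apart, while Hsph1 and Hspa4 were apart by sign, size and SD. Hspa8 is counted against both Hspa1a and Hspa1b, whose split is uncertain. The regulators were read as well, with Hsf1, the factor that drives the heat response, at 16.9 and 17.6 TPM and Hsf2 at 38.2 and 43.5. Hsf4 and Hsf5 were under 1 TPM in both pups.

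**Figure D3:**
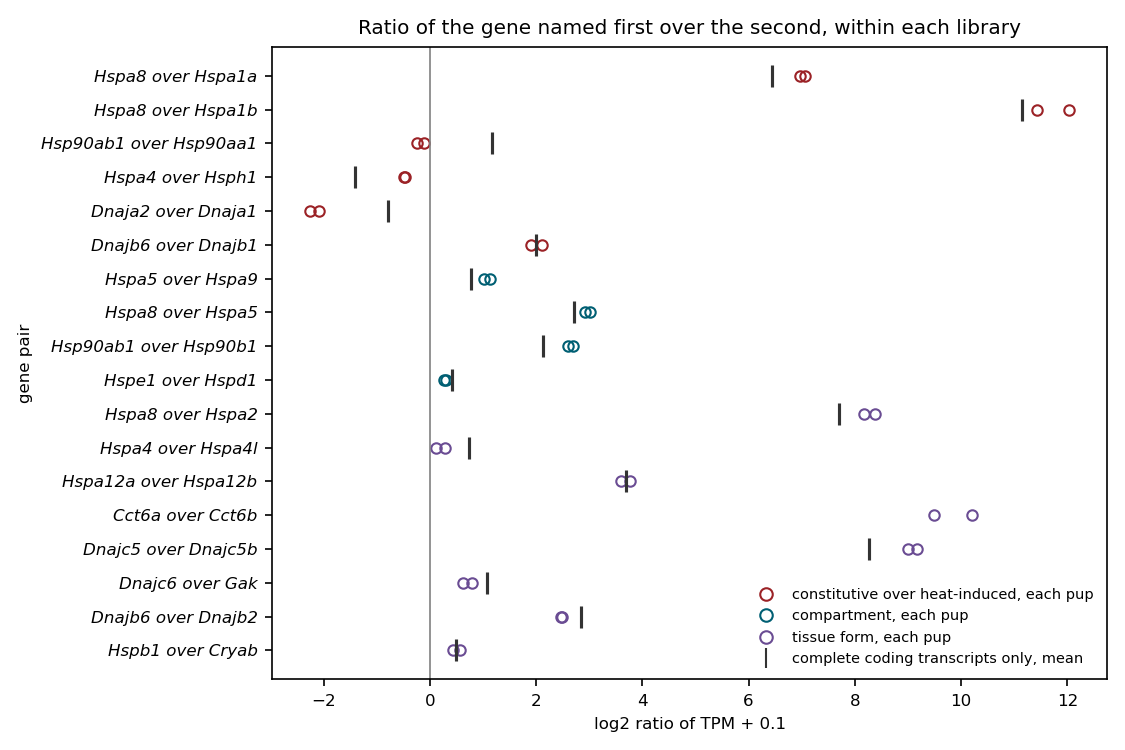
Log2 ratio of the first gene over the second within each library for 18 pairs (circles, 1 per pup, coloured by kind of pair; vertical ticks, mean ratio over complete coding transcripts only). Hspa8 over Hspa1b lies farthest right at 11.73, Dnaja2 over Dnaja1 farthest left at -2.18, and the tick for Hsp90ab1 over Hsp90aa1 lies at 1.16, across the 0 line from its circles.

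Class A DnaJ proteins are the closest relatives of bacterial DnaJ. Dnaja1 led all 45 DnaJ genes at 490 TPM in pup 1 and 543 in pup 3 when all transcripts were summed. Over complete coding transcripts it was at 198 ± 8.12 TPM, below Dnajb6 at 297 ± 9.21. In expected counts it was below Dnajc5, with means of 22387 for Dnaja1 and 24248 for Dnajc5. Dnaja2, the other main cytosolic form, was at 114 and 113 TPM, below Dnaja1 by 2.18 ± 0.11 on the log2 scale. Restricting both genes to complete coding transcripts left a ratio of -0.80 ± 0.053, no longer over 1 in size. Dnaja3, the mitochondrial form, was at 48.4 and 45.9 TPM, and Dnaja4 at 5.68 and 6.82. Dnaja4 overlaps Wdr61 on the opposite strand, which was at 72.4 ± 1.46 TPM.

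Class B was headed by Dnajb6, a suppressor of polyglutamine aggregation, at 293 TPM in pup 1 and 306 in pup 3. The heat-induced Dnajb1, the usual partner of cytosolic HSP70, was at 67.7 and 81.4, below Dnajb6 by 2.01 ± 0.14 on the log2 scale. Dnajb2, known for neuronal forms, was at 52.5 and 55.4 TPM, below Dnajb6 by 2.47 ± 0.011. Dnajb6, Dnajb1 and Dnajb2 thus kept their order in both pups. Dnajb4 was at 34.8 and 36.8 TPM and Dnajb5 at 35.2 and 32.2, so their order differed between the pups. Lowest above 0 were Dnajb13, a cilium and flagellum gene, at 1.82 and 2.32, and Dnajb7 at 0.14 and 0.22. Of the motile cilia markers, 3 of 4 were at 1 TPM or more, with Foxj1 at 8.17 TPM in pup 1 and 10.3 in pup 3 and Dnah5 at 0.10 and 0.16. Dnajb13 overlaps Ucp2 (89.6 ± 2.24 TPM) on the opposite strand, and the part of either in its level was not tested.

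Class C is the most varied class, with members fixed to 1 place or task. Dnajc5, the cysteine string protein of synaptic vesicles, was highest at 269 TPM in pup 1 and 257 in pup 3. Dnajc7, which binds both HSP70 and HSP90, followed at 197 and 202, and Dnajc8, associated with splicing, at 143 and 142. Over complete coding transcripts Dnajc5 was still highest (150 ± 4.88 TPM). Dnajc7 (116 ± 2.12) was then below Dnajc8 (130 ± 5.44) and Dnajc19 (125 ± 4.99). Neuron markers were all read, 7 of 7 at 1 TPM or more, with Snap25 at 250 and 278 TPM. Dnajc6 (auxilin), which recruits HSP70 to clathrin coats in neurons, was at 63.2 and 66.3 TPM. Its general relative Gak was at 40.9 and 38.2, giving a log2 ratio of 0.71 ± 0.12. Over complete coding transcripts the ratio was 1.07 ± 0.11, and the pair was apart by sign, size and SD, with credibility intervals not compared. Dnajc13, an endosomal member, was at 10.7 and 14.0 TPM. Dnajc9, a histone cochaperone, was at 67.4 and 68.7. The testis relatives of Dnajc5 were at or near 0: Dnajc5b was at 0.37 and 0.40 TPM, and Dnajc5g had no count in either pup, which allows up to 0.163 TPM in pup 1 and 0.149 in pup 3 (3 counts in each library, counting error only). Dnajc22 was at 1.13 and 1.36 TPM. The 11 class C members not named by list or rank lay between 6.03 (Dnajc16) and 59.1 TPM (Dnajc2).

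Members of the endoplasmic reticulum were all at or above 1 TPM in both pups (10 of 10), with a median of 37.5 ± 0.965 TPM. After Hspa5 and Hsp90b1 came Dnajb11, an HSP70 partner in the lumen, at 75.4 TPM in pup 1 and 76.6 in pup 3. Dnajc10, a disulfide reductase, was at 51.0 and 56.1, and Dnajb9, known for feedback on the stress sensor IRE1, at 37 and 36.3. Dnajb12 was at 22.2 and 21.6 TPM, Dnajc3 at 16.3 and 16.9, Dnajc1 at 13.9 and 16.0 and Dnajb14 at 6.80 and 8.05. Hspa5 was thus above every J-domain member of the compartment in both pups. Of 16 other chaperones of the endoplasmic reticulum and mitochondrion, 16 were at 1 TPM or more, highest for Calr (378 ± 1.22), Pdia3 (241 ± 18.6) and Canx (204 ± 5.34) and lowest for Hscb (8.12 ± 0.368). The 10 genes of the unfolded protein response were all read too, with a median of 11.1 ± 0.202 TPM. They were led by Atf4 (91.6 ± 1.27), Xbp1 (79.5 ± 4.72) and Herpud1 (64.5 ± 5.64), and Edem1 was lowest at 2.19 ± 0.311.

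The promoters of 3 of these members held the ER stress response element, searched on both strands as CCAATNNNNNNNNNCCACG and found in 39 of 32851 promoters (0.119%) and in 37 of 27025 genes (0.137%). Beside that share of genes, 3 of the 64 matched members (4.69%) had it: Hspa5, Hsp90b1 and Dnajc3. Hsp90b1 had 2 matches, of which the inner one reads on the opposite strand. The stretches are shown to let the box (CCAAT) and the tail (CCACG) be compared, in the direction of the gene and with the match in capitals. They lie at chr2:34772020-34772048 (Hspa5, plus strand), chr10:86705608-86705686 and chr10:86705528-86705556 (Hsp90b1, minus strand) and chr14:118937797-118937875 (Dnajc3, plus strand):
Hspa5: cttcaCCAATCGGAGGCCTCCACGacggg
Hsp90b1 outer: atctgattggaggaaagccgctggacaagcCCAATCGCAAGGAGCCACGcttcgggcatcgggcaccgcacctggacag
Hsp90b1 inner: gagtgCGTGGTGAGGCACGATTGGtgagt
Dnajc3: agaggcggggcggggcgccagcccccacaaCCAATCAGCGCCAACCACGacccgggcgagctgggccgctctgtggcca
GENCODE M21 starts Hspa5 upstream of its stretch, so that it falls in the first exon there. Hspa5 (269 ± 15.3 TPM) and Hsp90b1 (182 ± 8.37) were the highest members of this compartment, while Dnajc3 was at 16.6 ± 0.424.

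Mitochondrial members were also all at or above 1 TPM in both pups (9 of 9), with a median of 107 ± 4.31 TPM. Besides Hspa9, Hspd1 and Hspe1, the highest were the import motor partners Dnajc19, at 128 TPM in pup 1 and 121 in pup 3, and Dnajc15, at 111 and 104. Dnajc11, of the inner membrane organising complex, was at 62.9 and 64.7 TPM and Dnajc30 at 44.4 and 44.5. Dnajc28 was lowest at 3.73 and 2.63. Dnajc30 overlaps Bud23 (53.8 ± 2.21 TPM) on the opposite strand.

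The CCT chaperonin is a ring of 8 different subunits, so its genes can be read against each other. By symbol the members included 6 of them. Cct5 had 363 TPM in pup 1 and 367 in pup 3, Cct3 at 335 and 319, and Cct7 at 316 and 318. Cct8 was at 292 and 291, Cct4 at 193 and 196, and Cct2 at 161 and 166. The other subunits fell outside the rule: Tcp1 (subunit 1) by its name, at 277 and 313 TPM, and Cct6a because GENCODE M21 types it as a processed transcript, at 355 and 345. With them, the 8 subunits held 0.261% ± 0.00237 of protein-coding TPM and lay between 163 ± 3.86 (Cct2) and 365 ± 2.88 TPM (Cct5). In summed TPM, Cct3 and Cct7 differed by less than the SD of Cct3, and the values of Cct8 lay between those of Tcp1 in the pups. Cct4 and Cct2 were below the other subunits in both pups. The order of Cct5, Cct3 and Cct7 depended on what was summed. Cct3 was below Cct7 over complete coding transcripts, at 251 TPM in pup 1 and 234 in pup 3 beside 316 and 318. Mean expected counts put Cct7 (18060) above Cct5 (14780) and Cct3 (11920.5). The testis paralogues were close to 0, with Cct6b at 0.20 and 0.38 TPM and Cct8l1 on 0 counts in pup 1 and 2 in pup 3. A list of chaperonin partners, mostly prefoldin subunits and phosducin-like proteins but with Tcp1 itself on it, had 9 of 9 at 1 TPM or more and a median of 132 ± 2.46 TPM, highest for the prefoldin subunit Pfdn5 (464 ± 25.7), then Tcp1 and the prefoldin subunit Vbp1 (256 ± 10.5), and lowest for Pdcl (28.9 ± 1.29).

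Small heat shock proteins hold unfolded proteins without ATP, and several are known from muscle and lens. None of the 8 was at 100 TPM, with a median of 4.12 TPM (pup 1) or 3.92 (pup 3). Hspb11, an intraflagellar transport protein despite its symbol, was highest at 25.3 and 28.2 TPM. Hspb1 (HSP27), a heat-induced actin regulator, was at 16.8 and 16.4, Hspb6 at 11.5 and 11.5 and Hspb8 at 6.83 and 6.39. Cryab, the alpha-B crystallin outside the rule, was at 11.4 and 12.1 TPM, below Hspb1 by 0.50 ± 0.092 on the log2 scale. The muscle forms were low: Hspb2 was at 1.40 and 1.44 TPM, Hspb3 at 0.70 and 0.87, and Hspb7 at 0.08 and 0.10. Hspb9, a testis form, had 0 counts in pup 1 and 1 in pup 3. Skeletal muscle markers were at 1 TPM or more for 2 of 5, with Acta1 at 16.8 and 16.2 TPM, Ckm at 0.12 and 0.18 and Myog on 0 counts in pup 1 and 1 in pup 3. Hspb2 overlaps Cryab on the opposite strand, and its level cannot be told apart from reads of Cryab.

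Across classes, a list of 13 members known from germ cells or muscle was read, chosen with earlier results of these data known. Of these, 4 (30.8%) were at or above 1 TPM in both pups, beside 62.1% of all protein-coding genes: Hspa2, Dnajb3, Dnajb13 and Hspb2. The list is not complete, since Hspa4l (30.2 and 33.5 TPM) and Cct8l1, tied to testis above, were not on it. The median of all 13 was 0.37 TPM (pup 1) and 0.40 (pup 3). Dnajb3, a gene without introns known from testis, was the highest on the list at 10.6 and 10.0 TPM. It lies within Ugt1a genes on the opposite strand, of which Ugt1a6a was at 1.71 ± 0.318 and Ugt1a7c at 1.81 ± 0.608 TPM. Dnajb8 had no count in either pup, which allows up to 0.146 TPM in pup 1 and 0.133 in pup 3. Of all 79 members, 23 overlap another gene read at a mean of 1 TPM or more. For 22 of these such a gene is on the opposite strand, so their levels carry that limit. The share over all protein-coding genes was not computed.

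The HSP70 and HSP90 cochaperones outside the named families were all read (24 of 24), with a median of 82.7 ± 9.60 TPM. Ptges3 (p23), which stabilises the closed form of HSP90, was highest at 333 TPM in pup 1 and 369 in pup 3. Fkbp8 was at 329 and 299, and Stub1 (CHIP), the ligase that marks HSP70 clients, at 262 and 248. Hspbap1 was lowest at 2.37 and 1.99 TPM. Bag3, known to be induced by heat with Hspb8 as its partner, was at 3.37 and 3.1.

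The transcript tables divide each gene's TPM among its annotated transcripts. Of 31 members with a mean of at least 50 TPM, 25 had at least 2 transcripts, and in 25 of 25 the leading transcript was the same in both pups. For 23 it had a complete coding sequence in GENCODE M21. The leading transcript held a median of 78.3% of the gene's TPM, and complete coding transcripts together a median of 84.3%. Most of these 25 members thus had most of their TPM on complete coding transcripts. The same values over all protein-coding genes were not computed, so whether this is particular to the members was not tested.

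Hsp90aa1 and Dnajc2 led with another kind of transcript. The leading Hsp90aa1 transcript (ENSMUST00000155242.3, 711 nt) has an incomplete coding sequence and held 53.3% in pup 1 and 50.8% in pup 3. A retained-intron transcript of 924 nt held a further 18.6% and 19.7%. Complete coding transcripts held 26.5% ± 0.0750 of Hsp90aa1, which left them below those of Hsp90ab1 (67.0% ± 1.08 of that gene) as the ratio of 1.16 above shows. Dnajc2, a ribosome-bound member, led with a retained-intron transcript of 1011 nt at 49.1% and 46.9%, close to its complete transcript of 2133 nt at 42.7% and 43.9%. How far these estimated shares reflect molecules was not tested.

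Other members divided their TPM among several transcripts. Dnaja1 had the lowest leading share, 41.4% in pup 1 and 35.2% in pup 3 for a complete transcript of 3376 nt, followed by incomplete coding transcripts of 916 and 826 nt. Its complete coding transcripts together held 38.5% ± 4.41, the other value besides that of Hsp90aa1 under 50%. Dnajc6 led with 43.4% and 42.3%, and the rest was mostly on other complete transcripts, 81.3% ± 2.95 in all. Dnajc5 led with 44.4% and 44.5%, ahead of a transcript typed as nonsense-mediated decay at 37.6% and 39.1%. Dnajb2 led with 47.8% and 46.2% on 12 annotated transcripts. For Hspa8 the leading transcript held 52.1% and 52.6%, and a retained-intron transcript of 456 nt 24.8% and 25.2%, with 67.2% ± 0.942 on complete coding transcripts. The only deposited transcript of Dnajc15 is typed as nonsense-mediated decay in M21, so its complete share is 0 by annotation. Its 107 ± 4.31 TPM are therefore missing from class C values over complete coding transcripts.

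**Figure D4:**
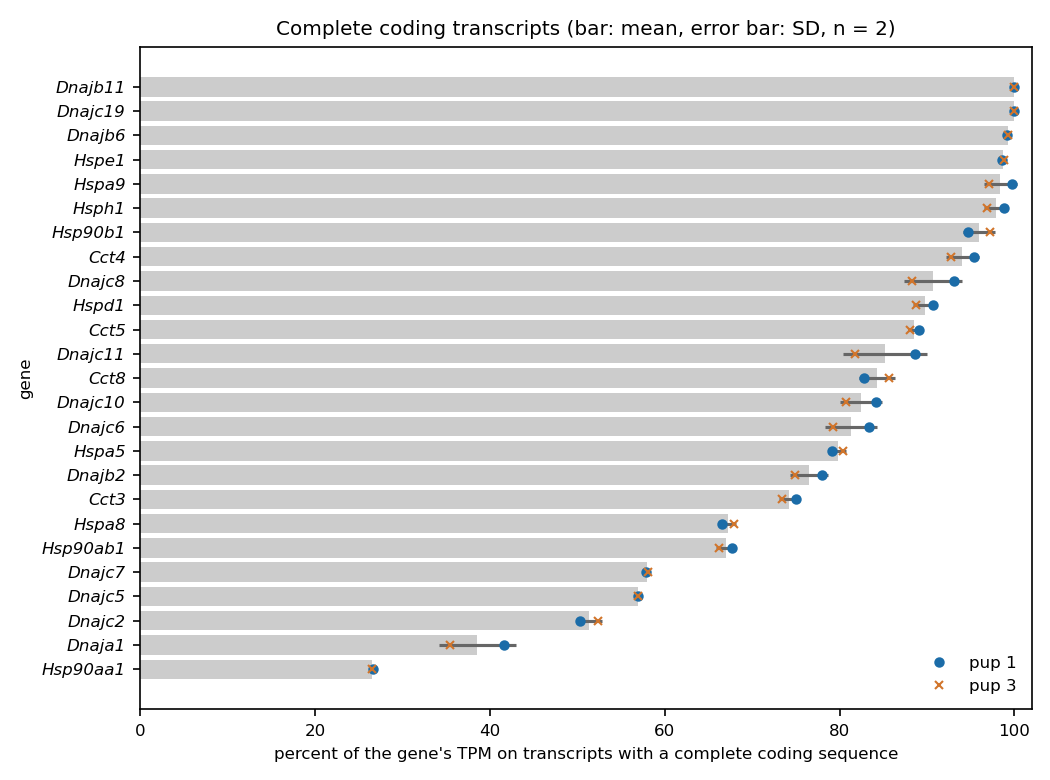
Percent of each gene's TPM on transcripts with a complete coding sequence (bars, mean; error bars, SD over 2 pups; circles, pup 1; crosses, pup 3) for the 25 members at 50 TPM or more with at least 2 transcripts. Hsp90aa1 (26.5%) and Dnaja1 (38.5%) lie under 50%, and Dnajb11 and Dnajc19 at 100%.

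Members differed little between the pups. Among 65 members whose mean expected count reached 100, 0 differed by 1 or more on the log2 scale in counts scaled to the library's protein-coding total, where 0.166% of 12620 protein-coding genes did. At 0.5 or more there were again 0 members, beside 1.5% of all genes. At such rates a count of 0 among 65 genes is not a result about the members. The median difference of pup 3 minus pup 1 was -0.0026 over members and 0.00054 over all genes, and the median size was 0.0769 and 0.0990. These values compare single libraries and carry no p. Counting intervals (exact binomial, 95%, counting error only) excluded 0 for 25 of the 65 members (38.5%), beside 43.2% of the 12620 protein-coding genes.

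Dnajc28 was at the low end, with 154 counts in pup 1 and 121 in pup 3, a difference of -0.48 (counting interval -0.84 to -0.13). Hspa12b followed at -0.36 on 212 and 182 counts. At the other end, Dnajc21, a ribosome biogenesis factor, was higher in pup 3 by 0.40 (0.22 to 0.58) on 440 and 638 counts, and Dnajc13 by 0.32. Among heat-induced members above the count minimum, Dnajb1 differed most, higher in pup 3 by 0.26 (0.19 to 0.32) on 3386 and 4450 counts. Hspa1b, under that minimum, had 25.0 and 46.0 expected counts. Of the other heat-induced members above it, Hsp90aa1 was higher in pup 3 by 0.11 (0.086 to 0.126). Hspa1a was higher by 0.11 (-0.016 to 0.226) and Dnaja1 by 0.021 (-0.0058 to 0.048), with counting intervals that include 0. The differences of Hsph1 (-0.0085) and Hspb1 (-0.049) were below 0, also with counting intervals that include 0.

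**Figure D5:**
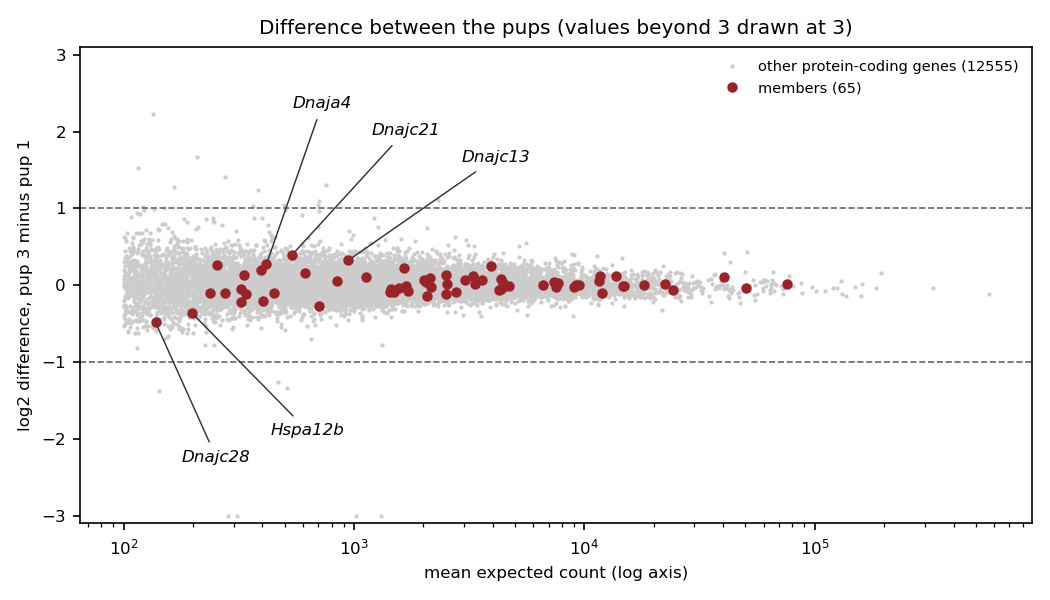
Log2 difference of pup 3 minus pup 1 against mean expected count (log axis) for 65 members (dark points) and the other protein-coding genes tested (grey), with dashed lines at a size of 1 and values beyond 3 drawn at 3. The members lie between -0.48 (Dnajc28) and 0.40 (Dnajc21), inside both lines.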

How the data were processed

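Total RNA was sequenced from a single midbrain of each of 2 pups. Per the labels' protocols, extraction used the mirVana method, the starting quantity was 10 ng, the size range was above 200 nt and a SMARTer Ultra Low kit manual was linked. The labels name separate pups with 1 donor identifier and give no batch. The deposited gene and transcript tables rest on build mm10 and GENCODE M4, per the text record deposited with them. The quantification program, its version and the use of strand are not given by any source used here. The authors deposited expected counts (estimated reads per gene, not always whole), TPM (scaled to 1 sum over all rows of a file), FPKM, posterior means, and the percent of a gene's TPM on each transcript. Bounds of a credibility interval of unstated level, a signal in TPM, were also deposited by the authors.

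Symbols, gene types and coordinates came from GENCODE M21 by Ensembl identifier without version, found for 42462 of 43346 Ensembl rows. A transcript is complete where M21 annotates its coding start and end, and transcripts absent from M21 count as not complete. The rule names every HSP70, HSP90, HSP60, HSP10, HSP110 and Cct member, the highest, lowest and listed members of the other stems, and the 3 highest and the lowest gene of each other list. The members, lists and pairs were chosen with earlier results of these data known. Ratios are log2 of TPM after adding 0.1, which understates the ratios of low genes. The difference between pups used expected counts scaled to each library's protein-coding total, and was tested on simulated data. Other scalings came from edgeR 4.0.16 (TMM) and DESeq2 1.42.0 (size factors) on rounded counts, in R 4.3.3. The other steps used Python 3.11.15, pandas 2.3.3, SciPy 1.17.1 and Biopython 1.88. Alternatives covered pseudocounts, length scaling, posterior means, level and count minimums, membership, and leaving out each pup.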

Additional observations from a re-analysis of the deposited data

Results flagged for a closer look

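Reads were also assigned to genes that carry the names of the set but stand outside its protein-coding rule. Cct6a, a subunit of the CCT ring that M21 types as a processed transcript, was at 350 TPM on average, with 355 in pup 1 and 345 in pup 3. Hspd1-ps3 was at 2.25 TPM on average, on 65.2 and 113 expected counts, and Dnajc19-ps at 1.79 TPM, on 10.96 and 10.82. The counts of these 2 pseudogenes are not whole, like those of Hspd1 and Dnajc19, and how reads were divided between gene and copy was not tested.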

How the results depend on the processing

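No paired analysis was possible because the labels give no second group. The share of protein-coding TPM held by all members was 1.22% in expected counts, 0.938% over complete coding transcripts only and 1.02% over all rows. In expected counts the families held 0.319% (HSP70 and HSP110), 0.276% (HSP90), 0.0352% (HSP60 and HSP10), 0.205% (chaperonin), 0.00355% (small HSP), 0.0893% (DnaJ A), 0.0793% (DnaJ B) and 0.208% (DnaJ C). Over complete coding transcripts, an alternative chosen after seeing the data, they held 0.255%, 0.169%, 0.0499%, 0.194%, 0.00756%, 0.0481%, 0.0821% and 0.133% in that order. The DnaJ C value holds nothing of Dnajc15, by annotation. The chaperonin share was 0.187% with posterior means, 0.222% with Tcp1 and 0.261% with Tcp1 and Cct6a, the last also chosen after seeing the data. Only members at 1 TPM or more gave medians of 37.6 TPM for all members, 36.3 for HSP70 and HSP110, 304 for the chaperonin, 11.5 for small HSP, 35.8 for DnaJ B and 23.4 for DnaJ C. Posterior means gave 33.8 for HSP70 and HSP110, 1116 for HSP90, 239 for the chaperonin and 78.7 for DnaJ A. The log2 ratio of Hsp90ab1 over Hsp90aa1 changed sign in expected counts (0.32) and over complete coding transcripts (1.16), and that of Hspe1 over Hspd1 in expected counts (-1.40). Over complete coding transcripts 5 of 6 constitutive and heat-induced pairs were apart by sign, size and SD, in place of 4, and the set changed. Dnaja2 over Dnaja1, the only pair of the 4 with the heat-induced gene higher, was no longer apart. Hsp90ab1 over Hsp90aa1 (constitutive gene higher) and Hspa4 over Hsph1 (heat-induced gene higher) came in. Credibility intervals, part of the main rule, were not compared over complete coding transcripts or in expected counts. The other 16 of 18 pairs kept their sign under 125 alternatives over all pairs. Without a count minimum 2 of 77 members differed by 1 or more between the pups, Hspb9 and Cct8l1, on at most 2 counts each. Leaving out 1 pup leaves the other pup's value, given in the text.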
